A study of Mus musculus with 36 samples.

Results

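The long noncoding RNAs that mouse liver expresses well enough to be counted reliably were described across the day in livers with and without the thyroid hormone receptor beta. Genes were taken when the deposited table gave their biotype as lincRNA, lncRNA or antisense and when their count averaged at least 100 over all 36 libraries. The rule returned 170 genes of the 8385 listed with these biotypes, 102 of them lincRNA and 68 antisense, and no gene carried the biotype lncRNA. The members were chosen by their mean count, so their abundance is a description and supports no test. The 3 genes just inside the limit were Gm30122, Gm15545 and Adap2os, with means of 100.47, 100.44 and 100.11 counts. The 3 just outside were A730063M14Rik, Gm17634 and 1700080G11Rik, with means of 99.58, 98.92 and 98.58 counts.

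Livers came from adult male mice of the strain B6.129S1-Thrbtm1Df/J, kept on a C57Bl/6NCrl background, which carries a germline deletion that removes both isoforms of the receptor. THRB KO mice were homozygous (Thrb-/-), and the control mice, called THRB WT here as in the labels, were heterozygous (Thrb+/-), so both groups carried at least 1 copy of the altered allele. All mice were group-housed on normal chow, with food at all times, under alternating light and dark. At each of 6 zeitgeber times (ZT, hours after lights on), namely ZT2, ZT6, ZT10, ZT14, ZT18 and ZT22, 3 mice of each genotype were killed, which gave 18 libraries per genotype, each from a separate mouse. Libraries were made from poly-A selected RNA without keeping the strand.

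Long noncoding RNAs are transcripts that are spliced and capped much like messenger RNAs but are not known to encode a protein. Some stay in the nucleus and organise nuclear bodies or chromatin, some act in the cytoplasm, and some are hosts from whose introns small RNAs are cut. Many arise beside or opposite a protein-coding gene, and the liver clock, in which CLOCK and BMAL1 act through E-boxes and the REV-ERB and ROR receptors through response elements of their own, is known to drive a large part of liver transcription with a daily rhythm. The thyroid hormone receptor beta is the main receptor for thyroid hormone in hepatocytes.

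The libraries held between 29063273 and 42530551 counts, and the members took between 0.246% and 0.340% of them. The lowest count of any member in any library was 6. In whole liver, fewer cells of a type and less RNA per cell cannot be told apart. Summed hepatocyte markers lay between 62777 and 89294 CPM (counts per 1000000 counts of the scaled library) in WT and between 68773 and 93002 CPM in KO, and Alb, which encodes albumin, averaged 56016 CPM in WT and 59534 CPM in KO, as in liver. None of the 7 lists of liver cell type markers held a gene called by genotype, beside 0.95% of all genes tested. Relative to its level the summed difference was widest for the 3 erythroid markers, 360 ± 156 CPM in WT against 279 ± 116 CPM in KO (mean ± SD, 18 mice each). Thrb itself was counted at 28.9 ± 3.69 CPM in WT and 31.5 ± 2.70 CPM in KO, so the count over the whole gene does not mark the deletion.

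By position, the members fell into genes that overlap a protein-coding gene and genes that stand apart. In the GENCODE M21 annotation of GRCm38, 79 of the 170 overlapped a protein-coding gene, 74 of them on the opposite strand, and 66 shared exon bases with it. A further 45 lay within 5 kb of a protein-coding gene without overlap, and 46 had none within that distance. Without strand, reads from exon bases that a member shares with an opposite gene cannot be told apart from reads of that gene, so the levels of those 66 members are uncertain. In the 13 members that overlap a gene without shared exon bases, unspliced reads of that gene can be counted too, and their part was not tested. Members also overlapped each other in 4 pairs. AI480526 shared 1622 and 1525 exon bases with 4932422M17Rik and Gm38102 on the other strand of chromosome 5, whereas Gm45792 inside Gm19950 (chromosome 7) and the overlapping Gm40438 and 4930404H11Rik (chromosome 12) shared none. RefSeq matched 126 members and classed 118 of them as lncRNA, 5 as protein-coding and 3 as pseudogenes. Among those named below, RefSeq has Tmem250-ps, 1810058I24Rik and Gm37494 as protein-coding and Gm10076 and Gm14097 as pseudogenes.

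Promoters were read for the members that carry the results, to show the sequence from which each is transcribed. RefSeq (GRCm38.p6) had a promoter, from 250 bases before to 50 bases after the start, for 100 of the 170 members. Of these, 86 lay within 1 kb of the deposited gene start, and for 74 the last bases stood in a transcript of the gene. The motif shares below include all 100. Capitals mark a match to CACGTG (an E-box), to TTATGTAA or TTACGTAA (a D-box), to TAGGTCA or TGGGTCA (the core bound by ROR and REV-ERB) or to AGGTCA (the hexamer that nuclear receptors recognise, which TAGGTCA contains), each searched on both strands. The first 4 belong to strongly rhythmic members, namely Gm36041 (chr10:122386645-122386944, plus strand), Gm31583 (chr16:24090016-24090315, minus strand), BC049987 (chr9:44672211-44672510, minus strand) and 1700001L05Rik (chr15:83367248-83367547, minus strand).
Gm36041: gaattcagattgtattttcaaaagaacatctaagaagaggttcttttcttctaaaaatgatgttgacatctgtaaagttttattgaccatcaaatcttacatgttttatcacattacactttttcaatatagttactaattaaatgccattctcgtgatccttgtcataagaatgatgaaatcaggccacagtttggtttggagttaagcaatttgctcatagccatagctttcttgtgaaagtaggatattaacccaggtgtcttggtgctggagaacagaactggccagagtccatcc
Gm31583: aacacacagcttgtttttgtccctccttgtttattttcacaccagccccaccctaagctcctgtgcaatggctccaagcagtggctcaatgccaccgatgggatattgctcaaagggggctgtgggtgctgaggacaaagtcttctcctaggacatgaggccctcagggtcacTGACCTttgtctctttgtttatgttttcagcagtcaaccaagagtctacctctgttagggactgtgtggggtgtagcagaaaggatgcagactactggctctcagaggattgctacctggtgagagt
BC049987: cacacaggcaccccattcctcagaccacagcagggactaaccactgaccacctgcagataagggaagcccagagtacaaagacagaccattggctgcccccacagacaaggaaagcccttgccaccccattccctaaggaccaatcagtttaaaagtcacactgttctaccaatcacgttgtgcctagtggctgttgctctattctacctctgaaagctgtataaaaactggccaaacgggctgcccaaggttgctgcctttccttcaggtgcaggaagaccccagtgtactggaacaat
1700001L05Rik: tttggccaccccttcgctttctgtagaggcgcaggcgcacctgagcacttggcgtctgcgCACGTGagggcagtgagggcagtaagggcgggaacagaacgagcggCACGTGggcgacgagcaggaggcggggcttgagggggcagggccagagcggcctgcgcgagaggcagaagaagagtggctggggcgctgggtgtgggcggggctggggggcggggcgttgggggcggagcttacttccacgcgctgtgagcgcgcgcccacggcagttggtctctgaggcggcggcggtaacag

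The next pair shows the start of Gm17586 (chr11:120633500-120633799, plus strand), 168 bases from the oppositely transcribed Mafg, and that of Gm38416 (chr8:117681372-117681671, plus strand), the member with the largest difference between genotypes.
Gm17586: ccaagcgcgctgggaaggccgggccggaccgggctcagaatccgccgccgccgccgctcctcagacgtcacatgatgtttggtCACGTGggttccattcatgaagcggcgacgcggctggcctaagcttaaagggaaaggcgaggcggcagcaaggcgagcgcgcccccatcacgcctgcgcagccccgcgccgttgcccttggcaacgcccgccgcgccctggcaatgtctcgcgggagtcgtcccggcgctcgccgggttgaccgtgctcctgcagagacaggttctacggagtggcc
Gm38416: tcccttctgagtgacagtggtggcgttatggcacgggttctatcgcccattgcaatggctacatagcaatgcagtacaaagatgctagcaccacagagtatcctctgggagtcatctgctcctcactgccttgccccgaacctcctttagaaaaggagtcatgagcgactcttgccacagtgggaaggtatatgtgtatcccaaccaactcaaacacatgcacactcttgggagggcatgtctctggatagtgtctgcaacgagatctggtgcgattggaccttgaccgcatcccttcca

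An E-box stood in the promoters of 10 of the 100 matched members and of 5 of the 39 that were rhythmic in both genotypes (12.8%), against 7.24% of 27025 promoters of all genes. 1700001L05Rik held 2 E-boxes and Gm17586 held 1. 4632404H12Rik, which was not rhythmic in both genotypes, also held 2. The ROR and REV-ERB core was found in 9% of matched members (5.13% of the 39 rhythmic in both) and 6.45% of all promoters. AGGTCA was found in 22% of matched members (10.3% of the 39) and 16% of all promoters. No matched member held a D-box, which 1.06% of all promoters did, or the spaced repeat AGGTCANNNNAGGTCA, which 3 of all promoters did. Gm31583 held 1 AGGTCA on the strand opposite to the one printed, and Gm36041, BC049987 and Gm38416 held none of these letters in this window. A match is a description of the sequence and not a bound site.

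Abundance was concentrated in a few members. The 5 most counted took 40.3% of all member counts, and the 10 most counted took 51.8%. Neat1, which builds the nuclear bodies called paraspeckles, averaged 16421 counts and Gm26917 8266. Malat1, an RNA of nuclear speckles, followed with 6400, then 0610005C13Rik with 5159 and 2900097C17Rik, which RefSeq names Norad, with 3000. The median member averaged 198 counts. Malat1 and the long isoform of Neat1 end without a conventional poly-A tail, whereas the short isoform of Neat1 is polyadenylated, and what poly-A selection does to their counts was not tested. Per kilobase of gene length the order changed. The highest levels were those of Gm26917 at 72.9 CPM per kb and AW112010 at 71.0 CPM per kb, a gene known from immune cells. They were followed by 0610005C13Rik at 42.3, Gm30262 at 34.0, Gm10076 at 32.7, Gm48633 at 32.3, Gm20319 at 29.8, 1810008I18Rik at 29.6, Tmem250-ps at 29.5 and Gm12909 at 28.7 CPM per kb. Gm26917 lies in a stretch known to resemble ribosomal RNA, and whether reads of ribosomal copies entered its count was not tested. Gm12909 lies 946 bases from Mup3, a major urinary protein gene, Gm48633 lies 27587 bases from Apob, and 0610005C13Rik and Gm20319 share 622 and 552 exon bases with Bcat2 and Il1rap on the opposite strand.

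Whether the loss of the receptor changed these RNAs was asked with sampling time in the model. All adjusted p-values here were computed by the quasi-likelihood test of edgeR and adjusted by Benjamini-Hochberg over the 17994 genes tested (edgeR adjusted p below), and a gene was called under 0.05. Of the 170 members 2 were called, both lower in KO (1.18%), against 0.95% of all genes tested in either direction, of which 0.506% were higher and 0.445% lower in KO. The members' share was near that background. The median log2 fold change of the members was -0.0087, and 76 of them were above 0, beside a median of -0.0011 over all genes tested. At an unadjusted p under 0.05 there were 17 members (10%), against 12.1% of all genes tested.

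Gm38416 is a lincRNA on chromosome 8 (117681622 to 117693198, plus strand, GRCm38) of unknown function, 7933 bases from its nearest protein-coding gene, Sdr42e1. In WT its level ran from 1.87 CPM through a median of 5.58 CPM to 9.69 CPM, and in KO from 0.699 CPM through 2.33 CPM to 7.04 CPM. At ZT2 the WT mice had 6.32, 6.30 and 6.13 CPM and the KO mice 3.48, 2.87 and 2.16 CPM. At ZT10 the WT mice had 2.06, 5.59 and 3.04 CPM and the KO mice 1.0, 1.3 and 1.14 CPM. The genotypes did not overlap at these times, whereas over the whole day their ranges overlapped, and the KO mean was below the WT mean at 6 of 6 times. The log2 fold change was -0.98 (SE 0.23, edgeR adjusted p = 0.0225). The call was lost when the WT ZT6 mouse with 9.69 CPM was left out (edgeR adjusted p = 0.0610) and held without any other single library. Sdr42e1 had a log2 fold change of 0.03 (edgeR adjusted p = 0.888).

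AI463229, a lincRNA on chromosome 13 (37657022 to 37667734, minus strand) with no protein-coding gene within 5 kb, ran from 9.46 CPM through a median of 13.5 CPM to 18.7 CPM in WT and from 6.96 CPM through 10.8 CPM to 21.9 CPM in KO. At ZT2 the WT mice had 14.7 to 16.7 CPM and the KO mice 10.5 to 11.2 CPM, and at ZT6 the KO mice had 21.9, 13.8 and 18.6 CPM against 18.7, 16.1 and 15.9 CPM in WT. The groups were apart at ZT2 and overlapped at ZT6, the 1 time at which the KO mean was the higher. The log2 fold change was -0.29 (SE 0.07, edgeR adjusted p = 0.0419). The call held in 13 of the 36 fits that left out 1 library, with adjusted p in edgeR's quasi-likelihood test between 0.00841 and 0.0751. It held without KO ZT6 a or c, KO ZT10 a or c, KO ZT14 c, KO ZT18 b, KO ZT22 c, WT ZT6 b or c, WT ZT10 b or c, WT ZT14 b and WT ZT18 b, and was lost without any of the others. Leaving out all mice of 1 letter (a, b or c, 1 mouse per genotype and time) ended both calls, with adjusted p in edgeR's quasi-likelihood test from 0.0573 to 0.312 for Gm38416 and from 0.0962 to 0.442 for AI463229.

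**Figure D1:**
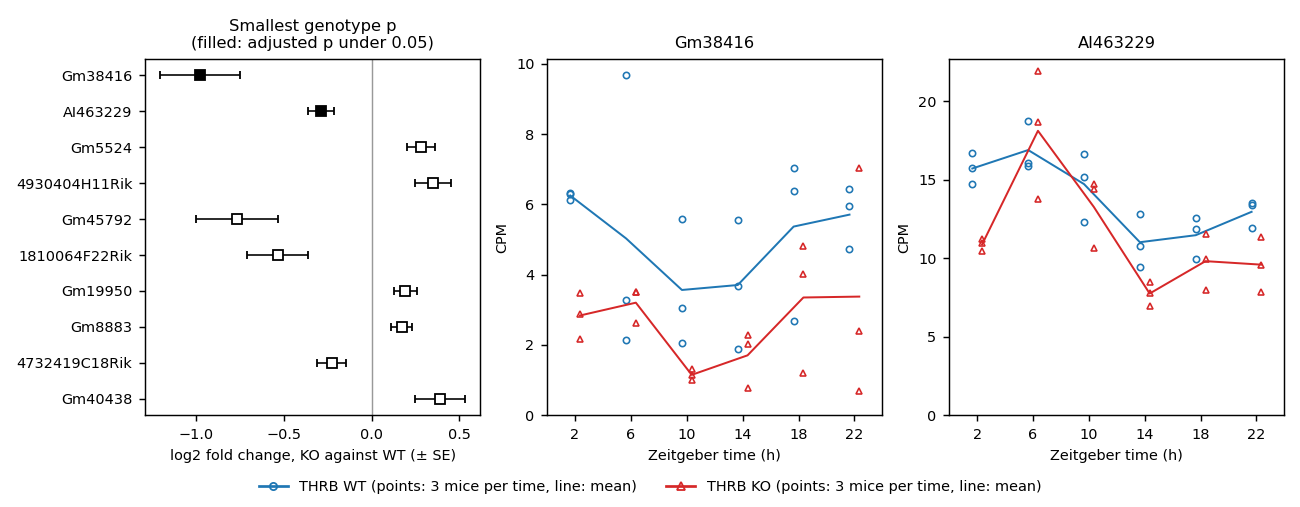
Left, log2 fold change of KO against WT with its SE for the 10 members with the smallest genotype p, filled where the adjusted p was under 0.05 (Gm38416 at -0.98 and AI463229 at -0.29). Middle and right, CPM of these 2 members by zeitgeber time, 3 mice per genotype and time as points and their means as lines. The KO line of Gm38416 runs below the WT line at 6 of 6 times.

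The next members in order of p did not pass the threshold and are given as values. Gm5524 had a log2 fold change of 0.28 (edgeR adjusted p = 0.0772), from 9.36 ± 2.87 CPM in WT to 11.3 ± 3.08 CPM in KO. 4930404H11Rik had 0.35 (edgeR adjusted p = 0.102) and the overlapping Gm40438 had 0.39 (edgeR adjusted p = 0.230), so both RNAs of this stretch of chromosome 12 had higher means in KO. The pair opposite Acsm1, which encodes a medium-chain acyl-CoA synthetase of mitochondria, differed in sign. Gm45792 had -0.77 (SE 0.23, edgeR adjusted p = 0.114) with a lower KO mean at 6 of 6 times, and Gm19950 had 0.19 (SE 0.07, edgeR adjusted p = 0.192) with a higher KO mean at 6 of 6 times. Acsm1 itself was lower in KO, with a log2 fold change of -0.17 (SE 0.03, edgeR adjusted p = 7.1e-04), and shares no exon bases with either. Without strand, unspliced reads of Acsm1 over these RNAs cannot be told apart from theirs. The remaining 3 were 1810064F22Rik at -0.54 (edgeR adjusted p = 0.151), Gm8883 at 0.17 (edgeR adjusted p = 0.215) and 4732419C18Rik at -0.23 (edgeR adjusted p = 0.223). Of the members on the chromosome of Thrb, 2 lay within 20 Mb of it, where alleles of the donor strain can travel with the deletion. 2810402E24Rik at 2.60 Mb had 4.05 ± 0.671 CPM in WT and 3.86 ± 0.772 CPM in KO (edgeR adjusted p = 0.759), and Gm49201 at 16.2 Mb had 3.21 ± 0.938 and 3.06 ± 1.08 CPM (edgeR adjusted p = 0.910).

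Time of day moved many more members than genotype did. Sampling time, tested in any shape over all 36 libraries, was called for 108 of the 170 (63.5%), against 45.0% of all genes tested. That test takes all mice as independent. Same-lettered WT and KO mice of a time deviated together, at r over 0.1, in 16 of 18 pairs, so its p-values can be too small. Abundance enters that background, since among protein-coding genes that also averaged at least 100 counts the share was 61.8%. A rhythm with a period of 24 h was called in WT for 85 members (50%, against 35.1% of all genes tested) and in KO for 77 (45.3%, against 31.5%). It was called in both genotypes for 59 (34.7%, against 24.5%, and against 36.4% of protein-coding genes with at least 100 counts). Among genes that averaged from 100 to under 1000 counts, 33.1% of 154 members and 32.0% of 5935 protein-coding genes were rhythmic in both genotypes. Of the lincRNA members 40 of 102 (39.2%) were rhythmic in both genotypes, and of the antisense members 19 of 68 (27.9%). A rhythm was called in WT alone for 26 members (15.3%, against 10.6% of all genes tested) and in KO alone for 18 (10.6%, against 7.02%), and 54 (31.8%, against 50.4%) were called by none of these 3 tests.

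Members rhythmic in both genotypes peaked more often in the light phase. By the fitted 24 h curve, 19 of the 59 peaked from ZT0 to ZT6, 19 from ZT6 to ZT12, 9 from ZT12 to ZT18 and 12 from ZT18 to ZT24. Over all 4411 genes called in both genotypes the shares were 21.2%, 32.0%, 18.9% and 27.9%, beside 32.2%, 32.2%, 15.3% and 20.3% of the members, so the excess of the members lay in the hours from ZT0 to ZT6, with no test of it. Their swings were of some size. The median amplitude over all 170 was 0.27 on the log2 CPM scale, against 0.21 over all genes tested and 0.16 over protein-coding genes with at least 100 counts. In 38 members (22.4%) the mean at the highest time was at least 2 times the mean at the lowest, against 19.9% of all genes tested and 7.54% of protein-coding genes with at least 100 counts. Of the members 8 reached 4 times, and the share of other genes that did is not given here. The median member count was 198 against 767 of those protein-coding genes. Among genes that averaged from 100 to under 1000 counts, 20.8% of members and 7.72% of protein-coding genes reached 2 times, at median counts of 188 and 401, and the part of count in this difference was not tested further.

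**Figure D2:**
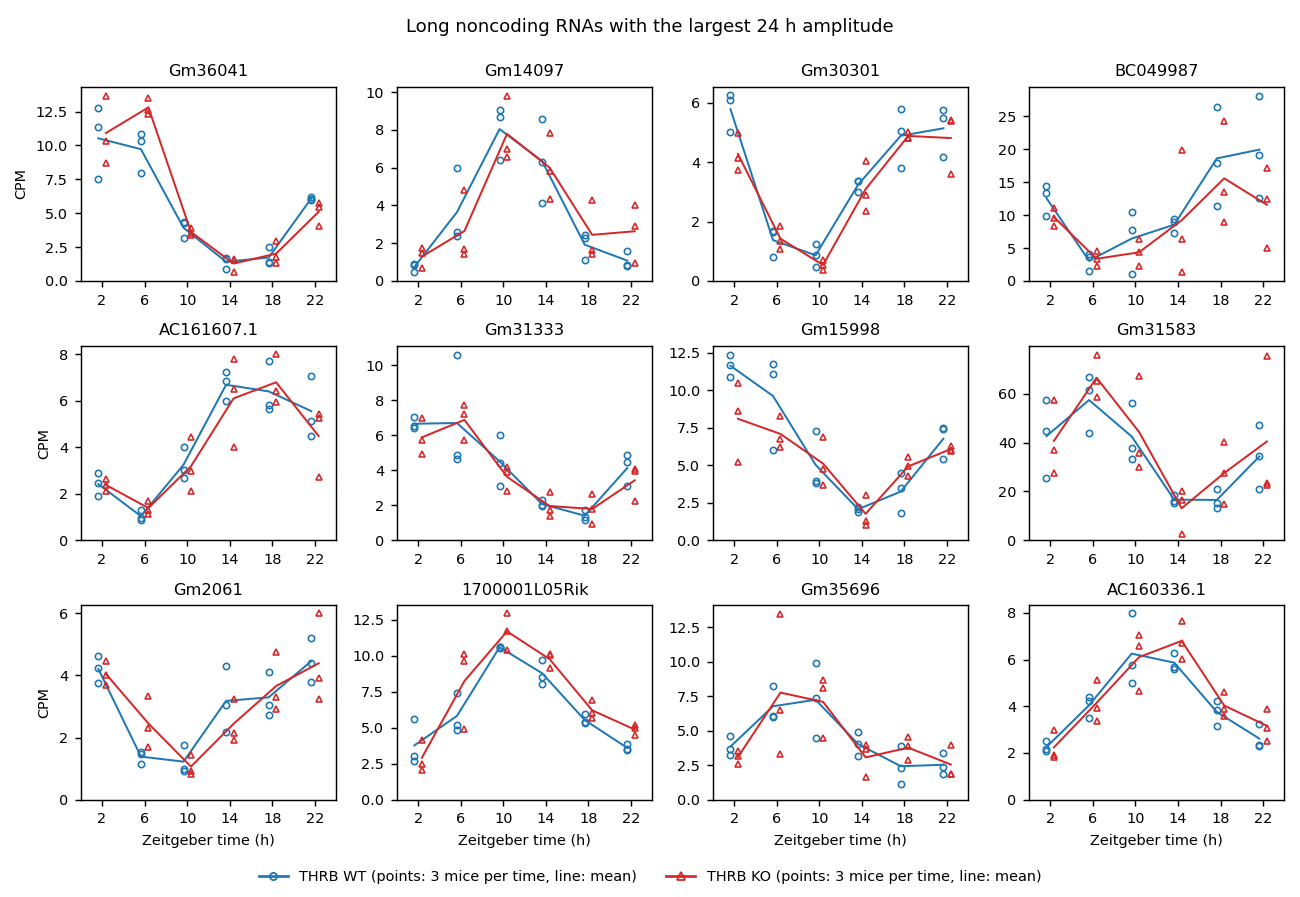
CPM (linear axis from 0) by zeitgeber time for the 12 members with the largest 24 h amplitude among those rhythmic in both genotypes, with 3 mice per genotype and time as points and means as lines. The WT and KO lines have their highs in the same part of the day in each panel, from ZT2 and ZT6 for Gm36041 to ZT18 and ZT22 for BC049987.

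The members with the largest amplitude peaked at different times of day. They were picked by amplitude and are described at their highest and lowest times, so the separation of these times follows in part from the choice. Those of the early light phase were led by Gm36041, a lincRNA of chromosome 10 (122386892 to 122435033, plus strand), 13466 bases from the vasopressin receptor gene Avpr1a. At ZT6 it had 10.9, 7.98 and 10.3 CPM in WT and 12.3, 12.6 and 13.5 CPM in KO, and at ZT14 it had 1.60, 0.913 and 1.73 CPM in WT and 1.60, 1.57 and 0.672 CPM in KO. The mice of ZT6 all lay above those of ZT14, 8.36-fold in the mean. The fitted peak was at ZT3.33 in WT (SE 0.29 h) and ZT3.49 in KO (SE 0.31 h), with edgeR adjusted p of 1.5e-10 and 7.4e-11. Gm31583 (chromosome 16, 24085083 to 24090089, minus strand) was the most abundant of the 12. At ZT6 it had 61.4, 44.0 and 67.0 CPM in WT and 75.9, 65.1 and 58.8 CPM in KO, and at ZT14 15.4, 16.2 and 18.4 CPM in WT and 20.1, 16.6 and 2.73 CPM in KO. Its high and low times did not overlap, with a 4.16-fold difference in means (edgeR adjusted p for rhythm 0.00464 in WT and 0.0164 in KO). Gm31333 differed 4.25-fold between ZT6 and ZT18 and peaked at ZT4.38 in each genotype. Gm15998, antisense to the ephrin gene Efna3 and sharing 344 exon bases with it, differed 5.14-fold between ZT2 and ZT14, and Efna3 peaked 0.55 h before it.

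Gm14097 lies antisense to the DNA repair gene Shld1, shares 48 exon bases with it and peaked 2.63 h after it. Around the change from light to dark, Gm14097 rose from 0.479, 0.909 and 0.851 CPM in WT at ZT2 to 9.04, 8.70 and 6.40 CPM at ZT10. In KO it rose from 1.75, 1.46 and 0.664 CPM to 6.56, 9.83 and 6.99 CPM. The times were apart in both genotypes, 7.77-fold in the mean over both. Its amplitude was 1.71 in WT (SE 0.18) and 1.15 in KO (SE 0.27) on the log2 scale, and the difference in rhythm between genotypes did not pass the test given below. 1700001L05Rik, whose promoter holds 2 E-boxes, had 10.6, 10.6 and 10.6 CPM in WT and 10.4, 12.9 and 11.7 CPM in KO at ZT10, and 5.59, 2.67 and 3.05 CPM in WT and 4.16, 2.47 and 2.08 CPM in KO at ZT2. Every ZT10 mouse was above every ZT2 mouse, and the fitted peaks were ZT11.7 in WT (SE 0.40 h) and ZT11.9 in KO (SE 0.61 h). AC160336.1 peaked at ZT12.2 with a 2.82-fold range, but it spans 93147 bases and shares 2444 exon bases with Gm5624. Gm35696 peaked at ZT8.18 and differed 2.86-fold between ZT6 and ZT22, with 1 KO mouse at 13.5 CPM and another at 3.31 CPM at ZT6, so that its high and low times overlapped.

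In the dark phase and at its end, AC161607.1, which lies opposite the transcription factor gene Zbtb20 and shares no exon bases with it, had 7.72, 5.83 and 5.67 CPM in WT and 6.43, 5.96 and 8.0 CPM in KO at ZT18. At ZT6 it had 0.959, 1.29 and 0.869 CPM in WT and 1.70, 1.32 and 1.15 CPM in KO. No mouse of ZT6 reached a mouse of ZT18, and the means differed 5.44-fold. Zbtb20, a regulator of liver gene expression, was called for time of day with an edgeR adjusted p of 0.0447. BC049987, 995 bases from the trehalase gene Treh, had 26.4, 11.4 and 17.9 CPM in WT and 24.3, 13.5 and 8.91 CPM in KO at ZT18, against 3.60, 1.55 and 4.08 CPM in WT and 2.30, 4.54 and 3.26 CPM in KO at ZT6. The mice varied widely at ZT18, but all were above those of ZT6. Gm30301 had its lowest values at ZT10, between 0.358 and 1.26 CPM over both genotypes, and its highest at ZT2, between 3.72 and 6.25 CPM, a 7.17-fold difference in means with a fitted peak at ZT21.1. Gm2061, opposite the manganese exporter gene Slc30a10 and sharing 533 exon bases with it, ranged 3.87-fold, from ZT10 to ZT22.

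These 12 were called in both genotypes in the fit on all libraries, while leaving out the mice of 1 letter ended some calls. Gm31583 lost its WT call without the b mice (edgeR adjusted p = 0.0698) or the c mice (0.0518) and its KO call without the a mice (0.0832) or the c mice (0.176, all from edgeR's quasi-likelihood test). BC049987 lost its KO call without the a mice (edgeR adjusted p = 0.0522), and Gm35696 without the c mice (edgeR adjusted p = 0.0982).

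**Figure D3:**
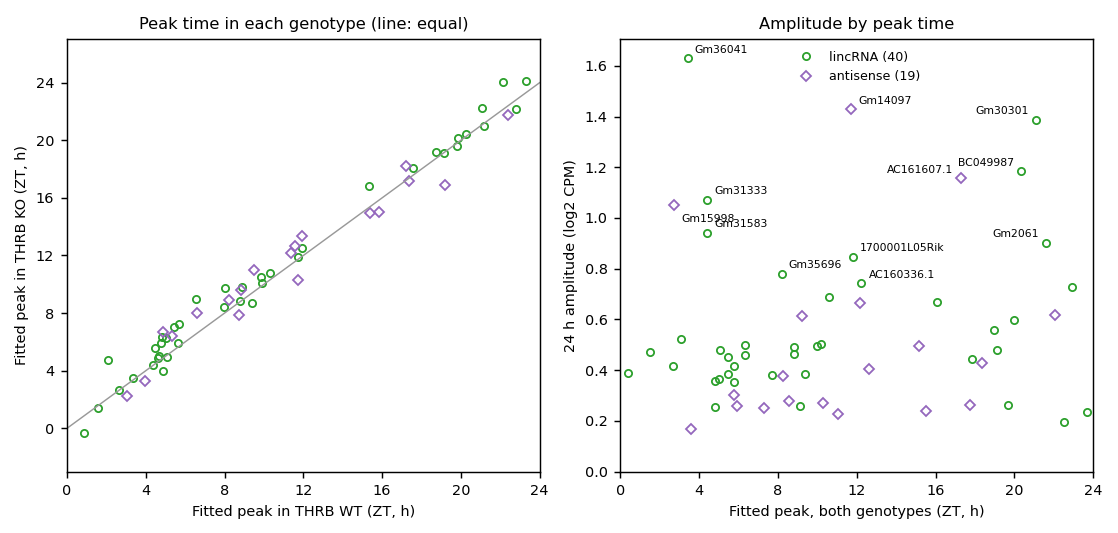
Left, fitted peak in KO against fitted peak in WT (zeitgeber time in h) for the 59 members rhythmic in both genotypes, with the line of equal times and lincRNA (40) and antisense (19) members in different symbols. Points span the whole day and lie near the line, 40 of them above it. Right, mean 24 h amplitude on the log2 CPM scale against the fitted peak over both genotypes, with the 12 largest amplitudes named.

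Whether the rhythm of a member differed between genotypes was tested by itself. By the quasi-likelihood test of edgeR, 0 of the 170 were called for a difference in 24 h rhythm, and 0 of all genes tested were (0.0%). At an unadjusted p under 0.05 in edgeR there were 4 members (2.35%), against 3.07% of all genes tested. DESeq2's likelihood ratio test gave 6 members, and its share over all genes is not given here. The smallest p belonged to Gm37494 (unadjusted p = 0.0167), 2210039B01Rik (0.0195) and Gm15318 (0.0198), each with an edgeR adjusted p of 1. 2210039B01Rik had 4.55, 9.01 and 7.03 CPM in WT at ZT6 and 5.38, 3.73 and 4.17 CPM in KO, and at ZT18 it had 3.51, 2.85 and 4.25 CPM in WT and 3.71, 5.07 and 4.62 CPM in KO. The genotypes overlapped at both times. A rhythm called in 1 genotype alone was therefore no evidence of a difference. Of the 26 members called in WT alone, 4 had an unadjusted p under 0.05 in the test of the difference, and of the 18 called in KO alone 0 did.

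A genotype effect that varies with sampling time in any shape was called for 0 members by edgeR's quasi-likelihood test and for 0 of all genes tested (0.0%). At an unadjusted p under 0.05 in edgeR there were 14 members (8.24%), against 2.69% of all genes tested and 1.98% of protein-coding genes with at least 100 counts. DESeq2's likelihood ratio test gave 16 members, and its share over all genes is not given here. The smallest p were those of C730027H18Rik (unadjusted p = 0.00281), Gm15318 (0.0147) and E130102H24Rik (0.0206), each with an edgeR adjusted p of 1.0. C730027H18Rik, a lincRNA, had 16.9, 17.6 and 17.1 CPM in WT and 13.5, 13.5 and 13.9 CPM in KO at ZT2, and 12.3, 9.62 and 11.4 CPM in WT and 12.7, 15.6 and 19.1 CPM in KO at ZT18. Its genotypes were apart at both times, with WT the higher at ZT2 and KO the higher at ZT18. Gm26917 was among the 14 (unadjusted p = 0.0388), with 135, 166 and 183 CPM in WT and 200, 268 and 343 CPM in KO at ZT10.

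Peak times of the 59 members rhythmic in both genotypes were later in KO for 40, by a median of 0.46 h over the 59. The same measure over all 4411 such genes was 0.39 h, with 2903 later. Leaving out the c mice lowered the median of the members to 0.21 h and that of all genes to 0.06 h.

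Neat1 had a wide range over the day. It had 938, 744 and 649 CPM in WT and 563, 643 and 571 CPM in KO at ZT18, and 227, 280 and 454 CPM in WT and 235, 241 and 322 CPM in KO at ZT10. The times were apart in the mean by 2.34-fold with no mouse of ZT10 above one of ZT18, and a 24 h rhythm was called in both genotypes (edgeR adjusted p = 5.06e-04 in WT and 0.0131 in KO) with a peak at ZT20.0. At ZT18 the 3 WT mice were above the 3 KO mice, the nearest at 649 and 643 CPM, and over the day genotype made a log2 difference of -0.15 (edgeR adjusted p = 0.671). Of the 8 paraspeckle proteins on a list of Neat1's partners, 5 were rhythmic in both genotypes and 0 were called by genotype, beside 24.5% and 0.95% of all genes tested and 36.4% rhythmic in both of protein-coding genes with at least 100 counts. Malat1 lay between 133 and 281 CPM in WT and between 142 and 264 CPM in KO, was called for time of day (edgeR adjusted p = 0.0310) and for a 24 h rhythm in neither genotype.

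The cytoplasmic RNA 2900097C17Rik (Norad), which binds PUMILIO proteins, lay between 65.6 and 123 CPM in WT and between 73.0 and 109 CPM in KO and peaked at ZT4.81, with a 1.44-fold range over the day and a rhythm called in both genotypes. Tug1, counted where it shares 483 exon bases with Morc2a, was also rhythmic in both, with a 1.27-fold range. 1700020I14Rik, which RefSeq names Oip5os1 (Cyrano, known for holding miR-7 in check), was called for time of day and for a rhythm in WT, and its KO rhythm had an edgeR adjusted p of 0.0757. Mir17hg, host of a cluster of growth-promoting miRNAs, had 7.57, 9.47 and 7.66 CPM in WT and 7.19, 7.15 and 3.95 CPM in KO at ZT2, and fell to between 2.61 and 4.04 CPM over both genotypes at ZT10. All but 1 KO mouse of ZT2 were above those of ZT10. Its rhythm was called in WT alone (edgeR adjusted p = 0.00236, and 0.238 in KO). The imprinted Meg3, at 7.12 ± 2.46 CPM in WT and 8.63 ± 3.02 CPM in KO, and Ftx, which lies beside Xist, at 3.05 ± 0.452 and 3.16 ± 0.646 CPM, were called by no test.

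**Figure D4:**
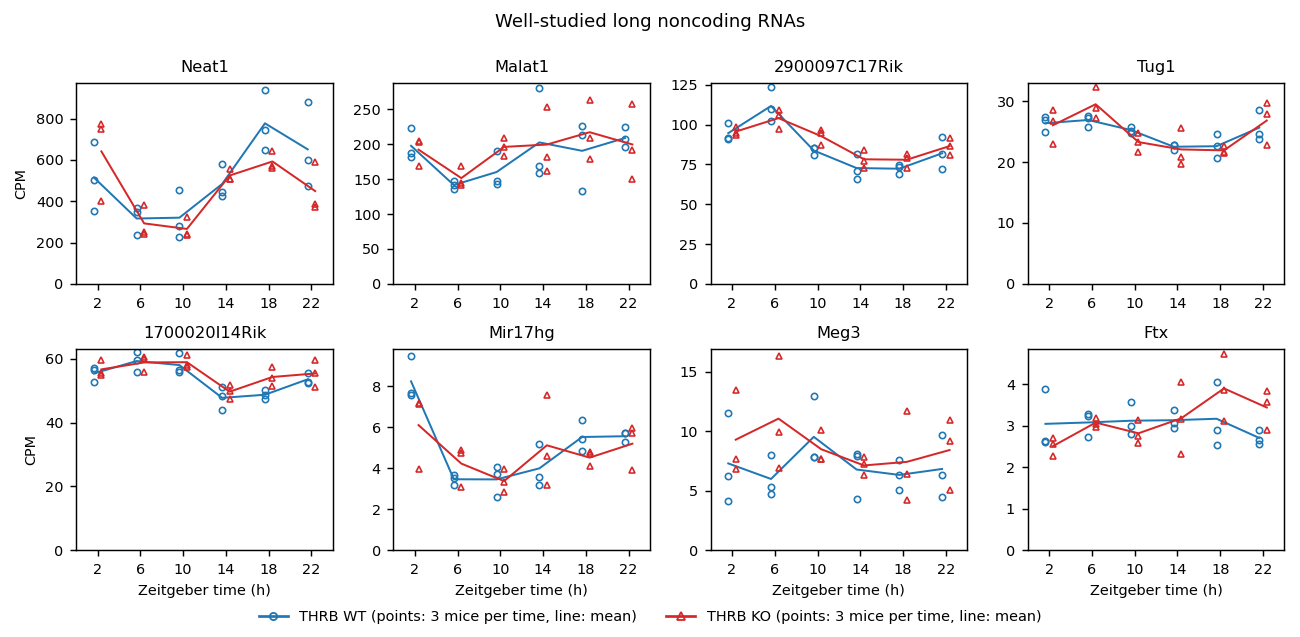
CPM (linear axis from 0) by zeitgeber time for 8 members with studied roles, with 3 mice per genotype and time as points and means as lines. Neat1 rises from ZT10 to ZT18 in both genotypes, 2900097C17Rik is highest at ZT6, and Meg3 and Ftx show spread between mice of 1 time as large as the change over the day.

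Hosts of small nucleolar RNAs (snoRNAs, which guide the chemical modification of ribosomal RNA) formed a list of 21 genes, of which 17 were tested and 4 were members. Snhg12 and Epb41l4aos were rhythmic in both genotypes with peaks at ZT9.12 and ZT9.38. Snhg6 was called for time of day and for a rhythm in KO, and Snhg20 by no test, with 13.2 ± 2.45 CPM in WT and 12.5 ± 2.33 CPM in KO. Their means were lower in KO for 4 of 4, with log2 fold changes from -0.12 to -0.08 and none called by genotype. Of the 8 snoRNP core proteins tested, which bind these RNAs, 6 were called for time of day, 1 was rhythmic in both genotypes and 0 were called by genotype. Of the 10 factors of nonsense-mediated decay, the pathway that degrades many spliced host transcripts, 7 were called for time of day, 6 were rhythmic in both and 0 were called by genotype. Of protein-coding genes with at least 100 counts, 61.8% were called for time of day and 36.4% were rhythmic in both. By genotype, 0.95% of all genes tested were called.

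Of the members, 13 carry the name of the gene they are transcribed beside or against, with the ending os. Those of liver transcription factors were Hnf1aos1, Hnf4aos, Prox1os and Tbx3os1. Hnf1aos1 lay at 7.99 ± 1.51 CPM in WT and 8.15 ± 1.26 CPM in KO, and Hnf4aos at 7.67 ± 1.5 and 7.92 ± 2.03 CPM, with no call in any test. Prox1os, against the gene of a regulator of hepatocyte identity, was rhythmic in both genotypes with a peak at ZT5.77, while a rhythm of Prox1 was called in neither (edgeR adjusted p = 0.0558 in WT and 0.103 in KO). Tbx3os1 was rhythmic in both genotypes at 9.69 ± 3.59 and 9.45 ± 3.97 CPM. None of the 13 was called by genotype, beside 0.95% of all genes tested. Of these 4, Hnf4aos shared no exon bases with its partner.

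Rhythmic members beside a rhythmic protein-coding gene, without shared exon bases, formed 7 pairs, and most of these peaked close together. Of the 45 members within 5 kb of a protein-coding gene, 15 were rhythmic in both genotypes, and the neighbour was too in 7 of these 15 and in 7 of the other 30, beside 24.5% of all genes tested and 36.4% of protein-coding genes with at least 100 counts. In 6 of the 7 pairs the peaks lay within 2 h, with a median difference of 0.61 h. How often unrelated rhythmic genes peak this close was not tested. Gm17586, which starts 168 bases from the small Maf transcription factor gene Mafg on the other strand, had 8.30, 7.14 and 8.82 CPM in WT and 7.05, 6.48 and 7.02 CPM in KO at ZT10, and between 3.53 and 3.95 CPM over both genotypes at ZT22. Its high and low times were apart, and it peaked 0.77 h before Mafg, at ZT8.79. Gm26608 peaked at ZT19.1, 0.43 h before Insig1, which holds back cholesterol synthesis when sterols are plentiful and lies 258 bases away. Gm28875 peaked 0.46 h before Syne3, Snhg12 0.61 h after Trnau1ap, and 2010320M18Rik 0.56 h after Pik3r2. 1810058I24Rik peaked 1.77 h before Slc13a4, which was near the floor, between 0.0269 and 0.913 CPM over both genotypes. The exception was Gm44421, 3228 bases from the glucocorticoid-induced factor gene Klf15, which had 9.63, 7.95 and 12.0 CPM in WT and 9.0, 8.73 and 6.47 CPM in KO at ZT14 and peaked 5.04 h after Klf15.

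Pairs that share exon bases peaked further apart in the median. Of the 66 such members, 22 were rhythmic in both genotypes, and the partner was too in 8 of the 22. Peaks lay within 2 h in 2 of the 8 pairs, Gm15998 with Efna3 (0.55 h) and Gm2061 with Slc30a10 (1.30 h before). The largest distance was that of Gm10658, 6.62 h before Ptpn9, and the median was 2.41 h. Whether the 2 kinds of pairs differ was not tested, and reads from shared exon bases belong to either partner.

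**Figure D5:**
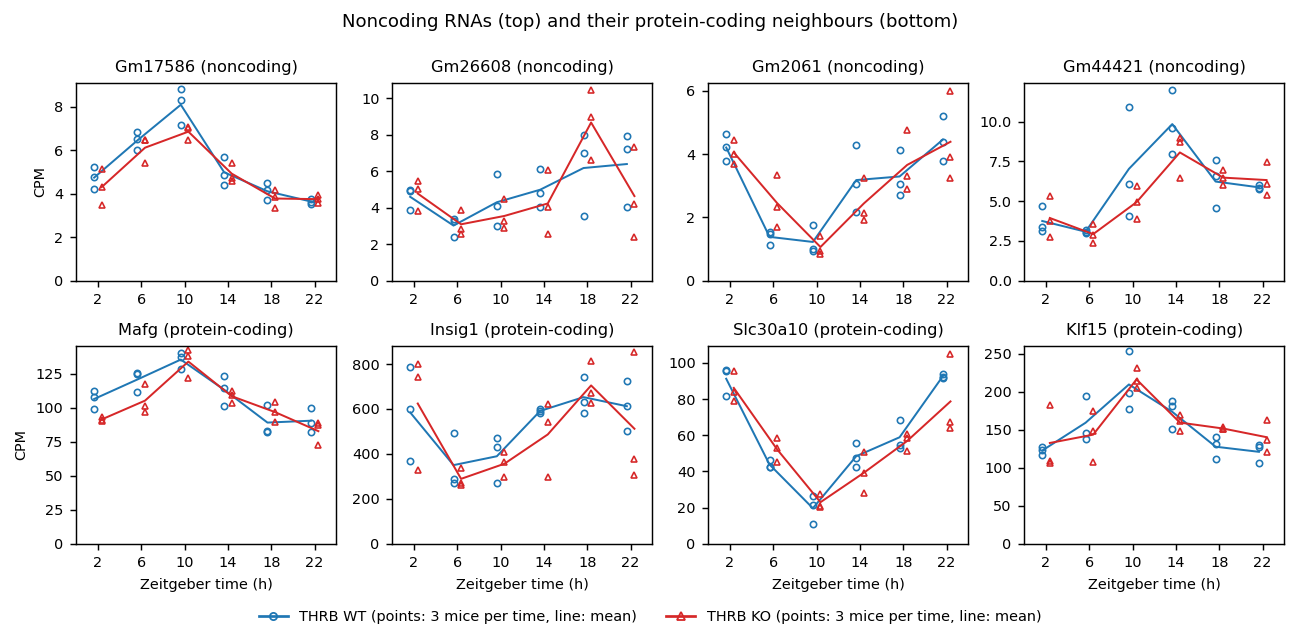
CPM (linear axes from 0) by zeitgeber time for 4 noncoding members (top) and the protein-coding gene beside or opposite each (bottom), with 3 mice per genotype and time as points and means as lines. Gm17586 and Mafg are both highest at ZT10, and Gm26608 and Insig1 both peak in the dark phase. Gm2061 and Slc30a10, which share exon bases, both are lowest at ZT10, and Gm44421 is highest at ZT14 where Klf15 is highest at ZT10.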

How the data were processed

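Per the labels and the study's methods, liver RNA was poly-A selected, made into non-directional libraries, aligned with HISAT2 to GRCm38 and counted per gene with featureCounts by the authors (versions, strand and multi-mapping settings not given in the sources used here). The deposited values are raw counts for 54532 genes in 36 libraries. The 17994 genes whose counts summed to 100 or more were tested with edgeR 4.0.16 (TMM scaling, quasi-likelihood test, R 4.3.3, limma 3.58.1), and p-values were adjusted by Benjamini-Hochberg over all of them at a threshold of 0.05. Models held genotype and sampling time as a factor, or sine and cosine terms with a period of 24 h per genotype, and all 36 libraries entered every fit. CPM are counts per 1000000 counts of the TMM-scaled library. Amplitudes are cosinor fits on log2 CPM, from the middle of the curve to its peak. The tests were checked on simulated counts with 200 changed genes, drawn from all genes with a mean of at least 100 counts and not from the members alone. A log2 size of 0.5 was a difference for genotype and a 24 h amplitude for the other tests. It was recovered in 63.5% (genotype by time) to 93.5% (time of day). No effect shared by mice of 1 letter was simulated.

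Members and lists were chosen with earlier results of these data known. Text names members called by genotype, filled to 10 by p, the 12 largest amplitudes among members rhythmic in both genotypes, the 3 smallest p of each test of a difference, the 10 highest levels per kb, list members, neighbours, members near Thrb and those at the limit of the rule. The os members and the member-neighbour pairs shown were chosen after their values were seen. Alternatives were DESeq2 1.42.0, its size factors, other filters, a replicate block, pooled times, each letter left out and, chosen after seeing the data, each library left out. The block was time and letter together for the tests of genotype and of differences between genotypes. For time of day and rhythm it was the mouse letter alone. Positions are those of the deposited table, exon overlap is from GENCODE M21, and promoters are from RefSeq GRCm38.p6, matched by symbol. Of the columns, 0 belonged to other samples.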

Additional observations from a re-analysis of the deposited data

How the results depend on the processing

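The number of members called by genotype was 2. It was 4 with DESeq2's likelihood ratio test (also Gm5524 and 4930404H11Rik), 0 with sampling times pooled, 0 without the mice of any 1 letter and between 0 and 3 without 1 library. A block for each sampling time and letter, which matches the WT and KO mouse of that time and letter, gave 4 (also Gm5524 and Gm45792). The labels do not say what the letters share. The numbers in the column names are close for most same-lettered WT and KO mice, and what these numbers mean is not stated. Same-lettered WT and KO mice deviated together, at r over 0.1, in 16 of 18 pairs (r from -0.091 to 0.392 over 10652 genes). Of the WT mice, 16 of 18 correlated best with their own letter. Pairing is thus a hint from the data and these numbers, and no label states it. Gm38416 kept its sign in every fit run, with log2 fold changes from -1.14 to -0.88, and was called in 40 of 45. Without 1 letter its adjusted p in edgeR's quasi-likelihood test ranged from 0.0573 to 0.312 and that of AI463229 from 0.0962 to 0.442. Time of day called 87 to 92 members without 1 letter (108 with all), rhythm in WT 59 to 71 (85), rhythm in KO 49 to 60 (77) and rhythm in both genotypes 35 to 42 (59). Fewer mice enter these fits. How many of all genes each alternative fit called is not given here, so these counts do not show whether members moved more than other genes. The mouse letter alone as a block gave 115, 88, 79 and 59. That block cannot take up an effect shared only by mice of 1 time and letter. The median peak difference without 1 letter ran from 0.206 to 0.555 h. No value changed sign. The limit at 100 mean counts leaves out low-expressed RNAs, and with the limit at 200 or 50 the shares of members called stayed close to those given (64.3% and 59.5% for time of day).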

Other observations

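Of 29 tested genes of the noncoding lists that the rule left out, because of another biotype or a lower count, 6 were rhythmic in both genotypes (20.7%, against 24.5% of all genes tested). Zfas1, a snoRNA host, was rhythmic in both genotypes with a peak at ZT9.11 and a 1.79-fold range, close to the peaks of its fellow hosts Snhg12 and Epb41l4aos, whereas Snhg14 peaked at ZT20.8. Mir22hg, the host of miR-22, averaged 63.2 CPM in WT and 64.3 CPM in KO and peaked at ZT7.63 with a 1.79-fold range. The imprinted antisense RNA Kcnq1ot1 peaked at ZT18.1 and Pvt1, beside Myc, at ZT22.8, and both were rhythmic in both genotypes. Gas5, the most abundant noncoding snoRNA host of the list at 63.9 CPM in WT and 60.0 CPM in KO, was called for time of day with a 1.26-fold range.

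The snoRNA host Snhg11, which the deposited table lists as protein-coding, was the 1 gene of the noncoding lists called by genotype. It ran from 12.4 CPM through a median of 21.2 CPM to 54.0 CPM in WT and from 4.17 CPM through 11.3 CPM to 32.7 CPM in KO. The ranges overlapped, and the log2 fold change was -0.95 (SE 0.16, edgeR adjusted p = 5.05e-04). Protein-coding genes that overlap members or lie within 5 kb gave 119 tested entries, with Acsm1 entered for both Gm19950 and Gm45792. Among them Acsm1 and Slc44a3 were called by genotype, both lower in KO, the latter with a log2 fold change of -0.27 (SE 0.06, edgeR adjusted p = 0.00919). Of all genes tested 0.95% were called, and of protein-coding genes with at least 100 counts 1.29%.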
